A study of Rattus norvegicus with 20 samples.

Results

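The dorsal hippocampus of male Wistar rats was compared between libraries made after depletion of ribosomal RNA (RBD) and libraries made after polyA enrichment. All samples labelled as dorsal were taken, 10 of the 20 samples of the series, of which 3 are RBD (dorsal RBD 1 to 3) and 7 are polyA (dorsal polyA 1 to 7). The rats were 3 months old and were handled without any treatment, and the dorsal part was 1 of 3 equal parts of the whole hippocampus, with the dentate gyrus, the CA fields and the subiculum. Each sample came from a different animal, and the RBD animals also differ from the polyA animals in the reagent for RNA extraction (ExtractRNA against Qiazol). A difference between the library types therefore cannot be told apart from a difference between animals or reagents.

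PolyA enrichment binds RNA to oligo(dT) beads and so keeps RNA that ends in a poly(A) tail, as most messenger RNAs do. Depletion removes ribosomal RNA and keeps the remaining RNA with or without a tail, including many small nuclear and other noncoding RNAs, the replication-dependent histone messenger RNAs, and transcripts that are not yet processed. The hippocampus holds neurons and glia, and either kind of library reads the RNA of all its cells together. The rows of the deposited table are not paired with gene identifiers, so genes are given by their row number, no gene was named from its place in the table, and neither cell type markers nor gene lists could be applied. For the same reason the tissue label could not be checked against marker genes, and no sequences are shown.

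The unit is the normalized count, that is, the number of reads on a gene divided by a median-of-ratios factor of the sample. Between 23825086 and 25262001 reads (median 24482892) fell on genes in polyA samples and 14920611, 18282253 and 18046492 in RBD 1, 2 and 3, so the RBD values rest on fewer reads. A read was found for 19456 to 19738 genes in the polyA and for 18925 to 19056 genes in the RBD samples. When every sample was brought to a common depth of 14920611 reads by calculation, 18825 ± 74.6 genes were detected in polyA samples (SD, n = 7) and 18775 ± 159 in RBD samples (SD, n = 3). These numbers overlapped, and the difference of -50.5 genes (RBD minus polyA) did not pass the exact permutation test at a threshold of 0.05 (two-sided p = 0.45). Of the 32883 rows, 8944 were at 0 in all dorsal samples.

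The read composition of the library types differed far more than that of the animals. The difference between a pair of samples was measured as the percent of reads that would have to lie on another gene to make the samples equal. It was 3.02% to 4.71% (median 3.73%) over the 21 pairs of polyA samples and 4.43% to 5.48% over the 3 pairs of RBD samples. Between a polyA and an RBD sample it was 16.03% to 18.8% (median 17.1%) over 21 pairs, so that no pair across library types came near a pair within one. The correlation of log2(normalized counts + 1) across the genes tested had the same order, with 0.99 at the median of the polyA pairs, 0.985 to 0.988 in RBD pairs, and 0.90 at the median across library types. Pairs share samples and genes are not independent replicates, so these values are descriptions. The first principal component held 82.3% of the variance in dorsal samples and placed the 7 polyA samples on one side and the 3 RBD samples on the other.

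**Figure D1:**
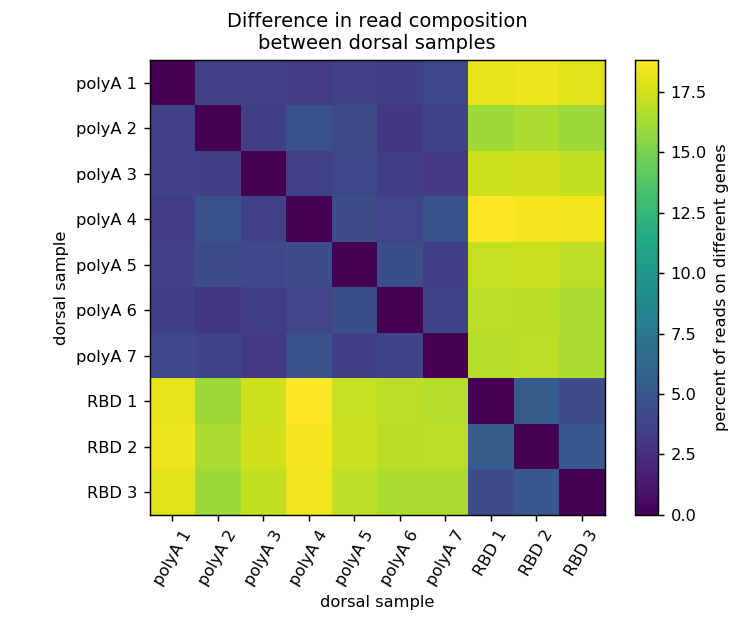
Percent of reads that lie on different genes for each pair of the 10 dorsal samples, from 0 (dark) to 18.8% (light), with samples on both axes. The blocks of polyA pairs and RBD pairs are dark, with at most 5.48%, and the block between the library types is light, with at least 16.03%.

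Differential expression was tested gene by gene with limma on log2(normalized counts + 1), and DE, or called, means a Benjamini-Hochberg adjusted p below 0.1. Positive log2 fold changes are those with more RNA in RBD. Of 15636 genes tested, 11015 (70.4%) were DE, of which 5366 (34.3% of the genes tested) were higher in RBD and 5649 (36.1%) were higher in polyA samples. For 4163 genes (26.6%) all RBD samples lay above all polyA samples, and for 4135 genes (26.4%) all lay below. In bulk tissue a lower value from fewer cells of a type cannot be told apart from less RNA per cell. The median log2 fold change over all genes tested was -0.010. Division by median-of-ratios factors places this median near 0, and the near-even split of the directions goes with it. Most log2 fold changes were small. The median absolute value was 0.36 over all genes tested, where the median standard error was 0.090, and 0.51 over the DE genes. The quartiles of the log2 fold change lay at -0.35 and 0.37.

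Differences of 1 or more on the log2 scale were reached by 1306 DE genes higher in RBD (8.35% of the genes tested) and by 1182 higher in polyA (7.56%). Changes of 0.5 to 1 were found for 1677 genes higher in RBD and 1446 higher in polyA, and of 1 to 2 for 856 and 654 genes. Beyond a log2 fold change of 2 the order turned, with 450 genes higher in RBD and 528 higher in polyA. Values of 5 or more were seen for 79 genes in the RBD and 101 genes in the polyA direction, and of 8 or more for 23 and 17 genes. With 1 normalized count added before the logarithm, the fold change of a gene with few or no reads in one library type depends on the added count.

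The balance of the large changes between the directions differed with the level of the gene. Genes were put into the classes of average expression used in the study, here by the mean of the polyA and RBD group means. Among the 3005 genes with a very low level, below 50 normalized counts, 62.3% were DE, and 751 of these genes were higher in RBD against 1121 in polyA. At this level the log2 difference reached 1 for 457 genes in the RBD and 781 in the polyA direction. In the 3895 genes with a high level, 1000 to 5000 normalized counts, 77.3% were DE. Here 213 genes were higher in RBD by 1 or more on the log2 scale, and 46 genes were higher in polyA. In the 799 genes with a very high level, above 5000 normalized counts, these numbers were 42 and 21. In either direction large changes were most numerous in the very low class. The low class, 50 to 300 normalized counts, had 353 and 245 such genes, and the middle class, 300 to 1000, had 241 and 89, so that large changes towards polyA were in the majority in the very low class alone. A gene of this class can pass the filter on low counts through one library type, and the RBD samples are fewer and shallower. When at least 10 reads were demanded in every sample, 13495 genes were tested. Of these, 4834 DE genes of all levels were higher in RBD and 4675 in polyA. The usual filter gave 5366 and 5649 of 15636 genes. The median absolute log2 fold change fell from 0.81 in the very low class through 0.39 and 0.29 to 0.27 in the high and very high classes, and the median standard error fell with it from 0.29 to 0.055 in the high class. The larger differences at low levels thus came with larger errors.

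**Figure D2:**
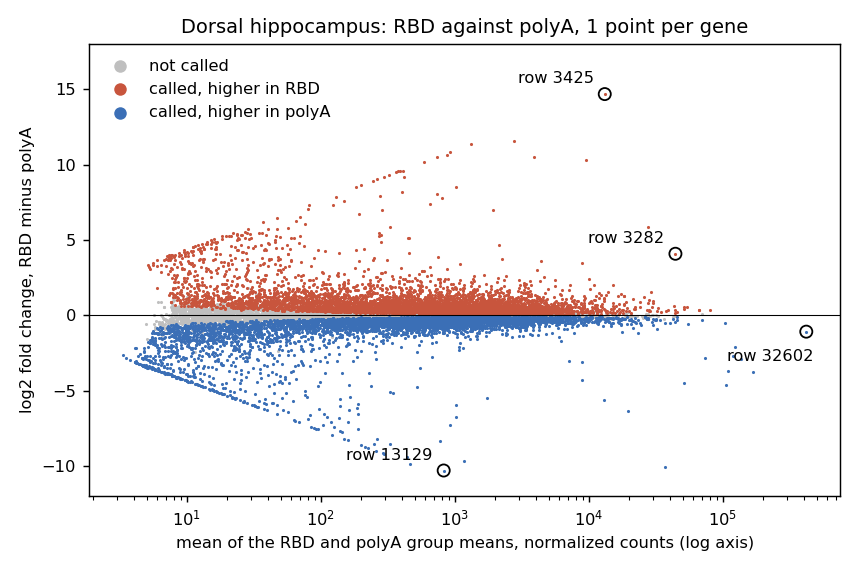
Log2 fold change (RBD minus polyA, vertical axis) against the mean of the polyA and RBD group means in normalized counts (log axis) for the 15636 genes tested. Red points are genes called higher in RBD, blue points genes called higher in polyA, grey points genes not called. Circles mark the 4 named genes, and the straight outer edges are genes with no or almost no reads in one library type.

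The genes shown by their values were chosen by a fixed rule. In each direction these are the largest log2 fold change and the largest difference of the group means among DE genes with no overlap of the groups and a mean level of at least 50 normalized counts. They are rows 3425 and 3282 in the RBD direction and rows 13129 and 32602 in the polyA direction.

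Row 3425 was seen in RBD samples alone. Its value was 24503, 28502 and 25706 normalized counts in dorsal RBD 1, 2 and 3, and it was 0 in each of the 7 dorsal polyA samples. With 3 reads per library taken as the limit that a count of 0 allows, the gene was at least 9325-fold higher in RBD, with counting error alone considered. The fitted log2 fold change was 14.68 (standard error 0.15, adjusted p = 2.18e-15 from limma), but with a group at 0 its size depends on the added count. The standard error and p draw largely on samples at 0, where no spread between animals can be seen. Row 3425 held 0.121% of the RBD reads and was the gene with the 62nd most reads there. In ventral RBD samples of the same animals it had 15103, 15405 and 13716 normalized counts and was again 0 in all ventral polyA samples. The 3 dorsal values were above the 3 ventral ones. With no polyA reads in either part, this is a difference between the RBD samples of 3 animals and is given without a test.

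Row 3282 had the largest gain in normalized counts. It was between 3652 and 6978 (median 4697) in polyA samples and 91130, 74644 and 84139 in RBD 1, 2 and 3. The groups were far apart, and limma gave a log2 fold change of 4.08 with a standard error of 0.18 (adjusted p = 1.48e-09). Among all genes it had the 751st most reads in polyA and the 4th most in RBD samples. The row directly before it was also higher in RBD, with 680 to 1444 normalized counts in polyA and 60873, 50994 and 50174 in RBD samples, which limma put at 5.85 on the log2 scale (standard error 0.21, adjusted p = 2.09e-10). The row directly after it had 6924 to 13214 normalized counts in polyA and 13514, 10407 and 12027 in RBD samples. These overlapped, and its log2 fold change of 0.25 (standard error 0.20) did not pass the test (adjusted p = 0.29 from limma).

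Row 13129 was the reverse case, a transcript of middle to high level in polyA that was almost absent from RBD samples. It had 1524 to 1866 normalized counts (median 1595) in polyA samples. In RBD samples 1 read was counted in all, in dorsal RBD 3, which makes 0, 0 and 1.22 normalized counts. The ratio of the group means was 4053, with a 95% counting interval of 696 to 153224 (exact binomial method), which is wide because of the single read. The fitted log2 fold change was -10.30 (standard error 0.20, adjusted p = 4.82e-13 from limma), and its size too depends on the added count. The standard error and p rest partly on RBD samples at or near 0. Ventral samples were alike, with 1278 to 1497 normalized counts in polyA and 0 in every RBD sample.

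Row 32602 had the most reads of all genes in both library types. It was between 523970 and 637340 normalized counts (median 539580) in polyA samples and 226150, 313070 and 267160 in RBD 1, 2 and 3. No RBD value reached the lowest polyA value, and limma gave a log2 fold change of -1.09 with a standard error of 0.14 (adjusted p = 2.01e-05). Its share of all reads was 2.55% ± 0.182 in polyA (SD, n = 7) and 1.24% ± 0.184 in RBD samples (SD, n = 3), a difference of -1.31 percentage points (RBD minus polyA). The row was chosen for this difference, so the shares are a description.

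**Figure D3:**
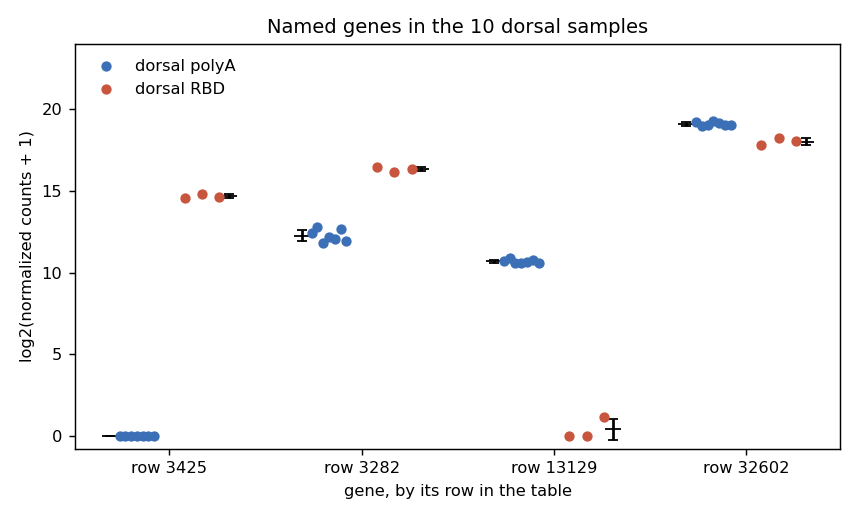
Log2(normalized counts + 1) of the 4 named genes in the 7 dorsal polyA (blue) and 3 dorsal RBD samples (red), with the mean and SD of each group in black beside the points. Row 3425 lies at 0 in every polyA sample, row 13129 near 0 in every RBD sample, and the groups of rows 3282 and 32602 do not overlap.

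The rows around row 32602 belonged to the largest loss of reads in RBD libraries. A stretch of 36 consecutive rows surrounds it, bounded on both sides by at least 5 rows with less than 1 normalized count on average. This stretch was picked after its values had been seen, so it is described without a test. It held 9.51% to 11.8% (median 10.1%) of the reads of the polyA samples, and 1.75%, 2.49% and 2.05% of those of RBD 1, 2 and 3. The highest polyA share was that of polyA 4 and the lowest that of polyA 7. In ventral samples the stretch held 11.8% to 13.9% of polyA and 1.98% to 2.47% of RBD reads. Of its rows, 30 were tested, of which 28 were DE and lower in RBD, 1 was DE and higher in RBD, and 1 was not DE. Over all genes tested, 36.1% were DE and lower in RBD, and 34.3% were DE and higher in RBD. The median log2 fold change of the 30 tested rows of the stretch was -3.67. The 12 rows with a mean level of at least 10000 normalized counts ranged from -10.08 to -1.09, so the loss was uneven within the stretch. Row 32602 had the smallest of these changes on the log2 scale, although it was named for the largest difference of the group means. Of the 10 genes with the most reads in polyA samples, 9 lay in the stretch. In RBD samples 1 of the 10 did, and the 2 lists of 10 had 2 genes in common.

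**Figure D4:**
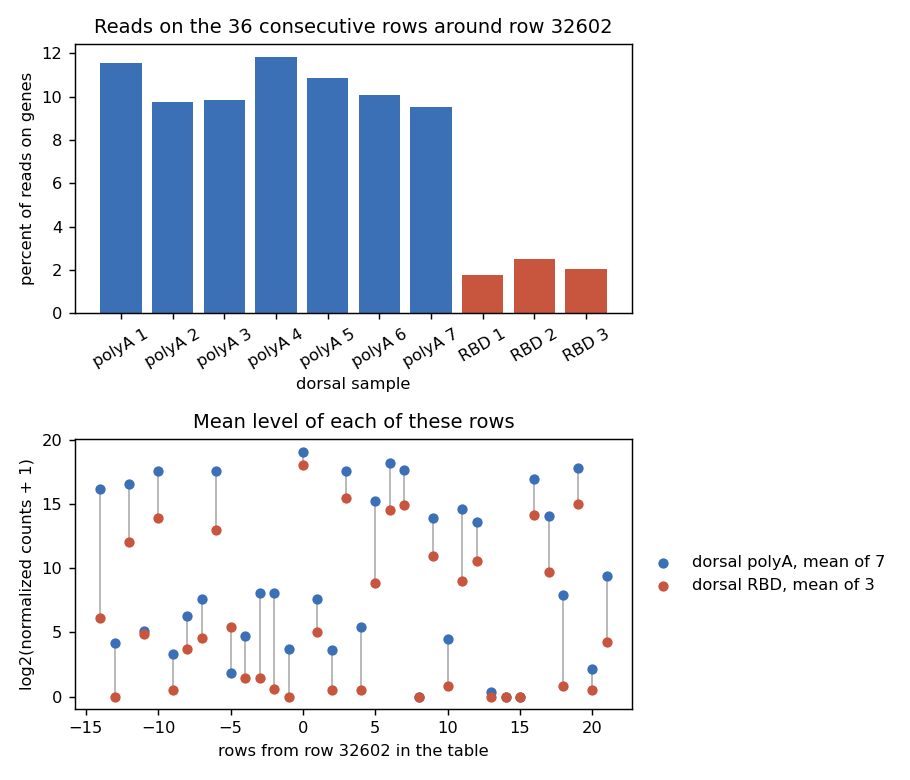
Upper panel, percent of the reads on genes that fall on the 36 rows around row 32602 in each dorsal sample, with polyA in blue (9.51% to 11.8%) and RBD in red (1.75% to 2.49%). Lower panel, mean log2(normalized counts + 1) of each of these rows by its distance in rows from row 32602, with a grey line from the polyA to the RBD mean, which runs downwards for nearly all abundant rows.

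The reads were more concentrated on few genes in polyA samples. The 100 genes with the most reads of a sample held 23.8% ± 0.823 of its reads in polyA (SD, n = 7) and 17.2% ± 0.421 in RBD samples (SD, n = 3). The most abundant genes that together held 50% of the reads numbered 766 ± 27.7 in polyA (SD, n = 7) and 947 ± 29.3 in RBD (SD, n = 3). Each passed the exact permutation test at the smallest two-sided p that 3 against 7 samples allow (p = 0.0167, adjusted p = 0.0222 over the 4 measures of composition). The same measures without the stretch are given as values only, since its rows were picked for their loss in RBD. In polyA and RBD samples the top 100 then held 16.3% and 16.2%, and 50% of the reads lay on 1012 and 987 genes. The most-read gene then held 0.614% and 0.443%, and at a common depth 18944 and 18756 genes were detected. The difference between polyA and RBD pairs in read composition remained without the stretch, at 12.9% to 14.97% (median 13.9%), and was still above the pairs within a library type.

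Gains and losses of reads were spread over different numbers of genes. From the mean polyA to the mean RBD composition, 16.7% of the reads moved. The 10 genes with the largest loss made up 47.4% of all losses, and the 10 genes with the largest gain 8.44% of all gains. For the 100 largest these shares were 63.9% and 31.0%. The 450 genes called higher in RBD by 2 or more on the log2 scale held 2.15%, 2.16% and 2.15% of the reads in RBD 1, 2 and 3, and 0.164% to 0.266% in polyA samples. The 528 genes called higher in polyA by as much held 7.33% to 9.26% of the reads in polyA and 0.71%, 1.08% and 0.855% in RBD 1, 2 and 3. Without the stretch, 501 of these remained, with 0.260% to 0.285% of the polyA reads. The genes were chosen by the same contrast, so these shares only describe how much of the libraries they make up.

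Some genes were found in one library type alone. Of all 32883 rows, 114 had at least 10 reads in every RBD sample and at most 3 reads in every polyA sample. The reverse held for 212 rows, so either set is a small part of the rows. The limit of 3 reads stands for at most 2.81 normalized counts in polyA and 4.28 in RBD samples, so it is looser in RBD, where the depth is lower. The demand of 10 reads is stricter in RBD for the same reason. The lowest mean level was 14.5 normalized counts in the RBD set and 10.1 in the polyA set. Through the depth both limits favour a larger polyA set. The demand of 10 reads must be met in 7 polyA but only 3 RBD samples, which works the other way. The net effect of the limits was not tested. In the RBD set the median level was 32.2 normalized counts and 7 rows reached 1000, with 26237 in row 3425 as the highest. In the polyA set the median was 30 and 2 rows reached 1000. With 0 reads demanded in the other library type, 32 rows were left in the RBD set and 94 in the polyA set. A gene of either set passes the filter on low counts through the library type in which it is high, and its difference in this contrast follows from the choice. The same limits were met in ventral samples by 90 of the 114 and by 164 of the 212 rows.

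The measured SD between animals was slightly larger at the median in RBD samples, from groups of unequal size. The SD of log2(normalized counts + 1) had a median over genes of 0.12 in polyA (n = 7) and 0.13 in RBD samples (n = 3) and was the larger one in RBD for 56.7% of the genes. In the very low class the medians were 0.37 and 0.43, and in the very high class 0.071 and 0.090. The animals, the depth, the number of samples and the library type move together here, and their part in this was not tested.

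The library difference recurred in the ventral hippocampus of the same animals. Fitted alone, the ventral samples gave 11477 DE genes of 15904 tested (72.2%), with 5590 (35.1%) higher in RBD and 5887 (37.0%) higher in polyA. Of the 5366 genes called higher in dorsal RBD, 5306 were also tested in ventral samples, where 4619 (87.1%) were DE in the same direction and 24 in the opposite one. Of the 5649 genes called higher in dorsal polyA, 5592 were tested and 4846 (86.7%) were DE in the same direction, with 12 in the opposite. For the genes with dorsal differences of 2 or more on the log2 scale it was 417 of 420 in the RBD and 499 of 500 in the polyA direction. Across the 15440 genes tested in both parts, Pearson's correlation of the log2 fold changes was 0.97 and Spearman's 0.92. Both parts come from the same animals and went through the same 2 library preparations, so the ventral values do not separate the library type from the animals or the reagents.

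Whether the library difference itself differed between the parts was tested as the interaction of part and library type over the 20 samples of both parts, and the animal was taken as a block. It was found for 1290 of the 15636 genes (8.25%), with 649 shifted to RBD in the dorsal part and 641 to polyA. These shifts had a median absolute value of 0.30 on the log2 scale, against 0.13 over all genes tested, and 133 genes reached 1. The median absolute dorsal library difference of the 1290 genes was 0.33. The 1290 genes include 463 of those called higher in dorsal RBD (8.63%) and 513 of those called higher in dorsal polyA (9.08%). Both shares are close to that of all genes tested. For dorsal differences of 2 or more on the log2 scale it was 17 of 450 genes (3.78%) in the RBD direction. In the polyA direction it was 63 of 528 (11.9%). These genes were chosen by dorsal values that the interaction uses again. Some of them are near 0 in one library type, where the fitted error draws largely on samples near 0. These shares are therefore descriptions. Over all genes tested in both parts, 36 were DE in each part with opposite directions. The count of 1290 depended on single animals. It was 397 without RBD 3, 596 without polyA 3, 676 without polyA 2 and 774 without polyA 6, and 51 without the block. The named rows 3282, 13129 and 32602 were not among the 1290 genes. Their interactions were -0.08, 0.10 and 0.08 (standard errors 0.20, 0.19 and 0.12).

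**Figure D5:**
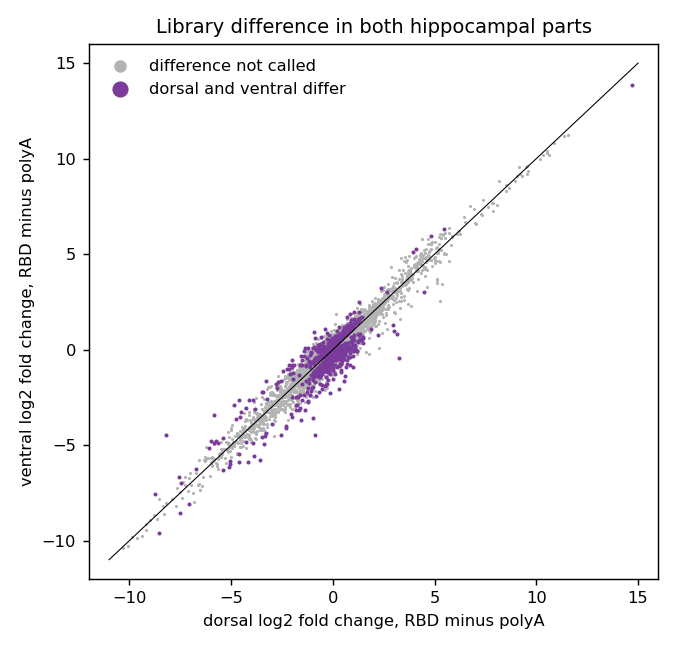
Ventral (vertical axis) against dorsal (horizontal axis) log2 fold change, RBD minus polyA, for the 15440 genes tested in both parts, with the line of equality. Purple points are genes whose library difference was called different between the parts, and grey points are the others. Most points follow the line over the whole range, and row 3425 lies at the upper end below it.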

How the data were processed

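The dorsal samples are 7 polyA and 3 RBD libraries, and the ventral samples of the same animals were used for comparison. The authors mapped reads to the rat genome Rnor_6.0 with STAR 2.7.9a, counted them per gene with featureCounts 2.0.1 and divided them by size factors (DESeq2 1.29). The versions come from the submitters' processing notes, and the strand setting is not given in the sources used here. The deposited values are thus a signal, normalized counts for each gene. Divided by the smallest nonzero value in the same sample, 100% of the nonzero values gave whole numbers (to within 7.28e-10), which are the recovered reads. The deposited factors matched median-of-ratios factors over all 20 samples to a relative 3.11e-15. 

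In R 4.3.3, limma 3.58.1 (lmFit and eBayes with a trend, pseudocount 1) was run on genes kept by filterByExpr of edgeR 4.0.16 (minimum count 10, minimum total count 15). Samples of separate animals stand as replicates. For the interaction, the animal labels pair dorsal and ventral samples, whose deviations from the group means correlated by 0.25 to 0.46 in every animal, and duplicateCorrelation gave 0.317. Values per sample were compared by exact permutation tests in scipy 1.17.1. Intervals and limits cover counting error only. The fits were tested on simulated counts with a known change in few genes and no correlation between samples of an animal. That setting is simpler than these data. Named rows followed a rule, given in the report. The samples, classes and tests were chosen with earlier results of these data known. Alternatives were edgeR's quasi-likelihood test and DESeq2 1.42.0 on the recovered reads, other scaling, pseudocounts, filters and thresholds, the replicate number as a block, and leaving out each sample. Leaving out the stretch of rows was added after the data were seen. Gene identities were not analysed here.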

Additional observations from a re-analysis of the deposited data

Results flagged for a closer look

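The library difference differed between the dorsal and the ventral hippocampus for 1290 genes by the interaction test in limma with the animal as a block. Row 3425 is among them, with an interaction of 0.8306 on the log2 scale. It had 0 reads in all polyA samples of both parts, so this value is the dorsoventral difference of the RBD samples, and its fitted error draws mostly on samples at 0. No p is given for it. Among the 10 measures checked over the 7 dorsal polyA samples (composition, depth and the named rows), none had a sample apart from the rest by Dixon's test at 95%.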

How the results depend on the processing

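The number of dorsal DE genes was 9509 of 13495 tested with at least 10 reads demanded in every sample, and 12945 of 23939 with no filter. With 15636 genes tested it was 10583 by DESeq2, 10870 by edgeR, and between 10922 and 11038 with other scalings and pseudocounts. Without any 1 sample it was 10457 to 10932 dorsal and 11061 to 11407 ventral. Minimum absolute log2 fold changes of 0.5 and 1 left 5611 and 2488 dorsal genes (2983 and 1306 higher in RBD, 2628 and 1182 higher in polyA) and 6173 and 2771 ventral genes. With the replicate number as a block 9374 dorsal genes were DE, but equal numbers stand for different animals, and the deviations of same-numbered samples correlated by -0.051 to 0.038. TMM scaling put 47.3% and total count scaling 52.7% of the DE genes higher in RBD, against 48.7%. All 78 alternative fits of the named rows kept direction and call. These rows were chosen as called, without overlap and with the largest changes, so this was largely set by the choice. The interaction gave 51 genes without the block, 443 at an adjusted p below 0.05 and 397 to 1701 with an animal left out. For the composition, leaving out a sample gave differences of -152.5 to 27.43 genes detected, -1.407 to -1.224 points for the most-read gene, -6.716 to -6.329 points for the top 100 and 164.8 to 192.8 genes for 50% of the reads. With 2 RBD samples the smallest exact permutation p is 0.0556, above the threshold of 0.05. Without RBD 2 the RBD samples had more genes detected (27.43). Without the stretch, whose rows were picked for their loss in RBD, the differences in the same order were -188.5, -0.1708, -0.1155 and -25.14. The depth of the RBD samples limits what can be said of genes below about 10 reads.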

Other observations

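Genes with a large gain in RBD were often next to each other in the table. Of the 450 genes called higher in dorsal RBD by 2 or more on the log2 scale, 107 (23.8%) had such a gene in the row directly before or after them, and of all 15636 genes tested 472 (3.02%) had one. In the polyA direction it was 44 of 528 (8.33%), against 4.28% of all genes tested. Without the stretch around row 32602 these shares were 3.79% and 4.11%. In the RBD direction they were 23.8% and 3.01% without it. The log2 fold changes of rows that follow each other had a Pearson correlation of 0.15 over 9571 pairs and a Spearman correlation of 0.12. At 10 rows apart Pearson's value was 0.065, and at 1000 rows apart it was -0.0026. The values are descriptions across rows, whose order in the table is not explained in the sources used here.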
